A study of Sus scrofa with 4 samples.

Results

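Genes that mark the endothelium of blood and lymph vessels, or its activated state, were followed across pig kidneys before and after transplantation into non-human primates. The list held 38 genes, chosen by name with earlier results of these data known. Of the 38 genes, 36 had 10 or more counts in at least 1 of the 4 libraries, out of 26466 gene symbols in the files and 18168 that passed the same filter. The 2 that did not were CLDN5, a tight junction gene of endothelium with 0 counts in 3 libraries and 2 in the other, and SELP, the gene of P-selectin, with 3 to 5 counts. The 36 comprised 22 pan-endothelial genes, 2 genes of particular capillary beds, 4 lymphatic genes and 8 genes of activation or angiogenesis.

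All kidneys came from pigs without the galactosyltransferase GalT (GalT-/-) that carried human CD39 and human CD55. The first genotype had these modifications alone and is called CD39/CD55. The second also carried human CD46 and thrombomodulin (TBM) and is called CD39/CD46/CD55/TBM in the figures and TBM in the text. Each genotype had 1 untransplanted kidney and 1 transplanted kidney, the latter taken at 4 weeks in CD39/CD55 pigs (the 4-week kidney) and at 6 weeks in TBM pigs (the 6-week kidney). The study asked which genotype better eases immune rejection. Genotype, weeks and recipient cannot be told apart between the transplanted kidneys, and no group had a replicate. The sources used here do not give the age and sex of the pigs, the promoters of the transgenes, whether the kidneys of a genotype shared an animal, or how reads from the recipient's own cells were treated.

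Endothelial cells line every vessel and are the first graft cells that the recipient's blood meets. Their identity rests on ETS and SOX transcription factors, on junction proteins such as VE-cadherin, and on receptors for VEGF and the angiopoietins. In the kidney they form distinct beds, among them the fenestrated capillaries of the glomerulus and the capillaries around the tubules. When inflammatory signals reach them, they display E-selectin, ICAM1 and VCAM1, which catch leukocytes, and when vessels sprout they express ESM1, ANGPT2 and apelin.

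Total counts ranged from 10346863 to 14092905 per library. Levels are given as scaled CPM, that is CPM after library totals were scaled with edgeR's TMM factors, and the limit that a count of 0 allows (3 counts) lay between 0.218 and 0.29 scaled CPM. Ribosomal RNA loci took 8.01% and 9.33% of counts in the untransplanted kidneys and 15.2% and 13.7% in the transplanted ones. Mitochondrially encoded protein genes took 10.6% and 4.23% in CD39/CD55 pigs before and after transplantation, and 15% and 12.6% in TBM pigs, so their share was lowest in the 4-week kidney. A pair of libraries was compared by the log2 ratio of scaled counts with its exact 95% interval (Clopper-Pearson), which covers counting error only. A gene was called when the ratio reached 2-fold and the interval excluded 1. In bulk RNA, fewer cells of a type and less RNA per cell cannot be told apart.

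Core endothelial markers were present in every library. PECAM1, an adhesion molecule of endothelial junctions, had 407 to 948 counts, EMCN, a sialomucin of capillaries and veins, 272 to 807, and CDH5, which encodes VE-cadherin, 109 to 209. Over the whole pan-endothelial list the summed level was 412.1 scaled CPM in CD39/CD55 pigs before transplantation and 241.0 in the 4-week kidney. It was 380.9 in the untransplanted TBM kidney and 252.8 in the 6-week kidney. Both transplanted kidneys thus lay below both untransplanted ones, with log2 ratios of the sums of -0.77 (95% counting interval -0.84 to -0.71) and -0.59 (-0.66 to -0.52).

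**Figure D1:**
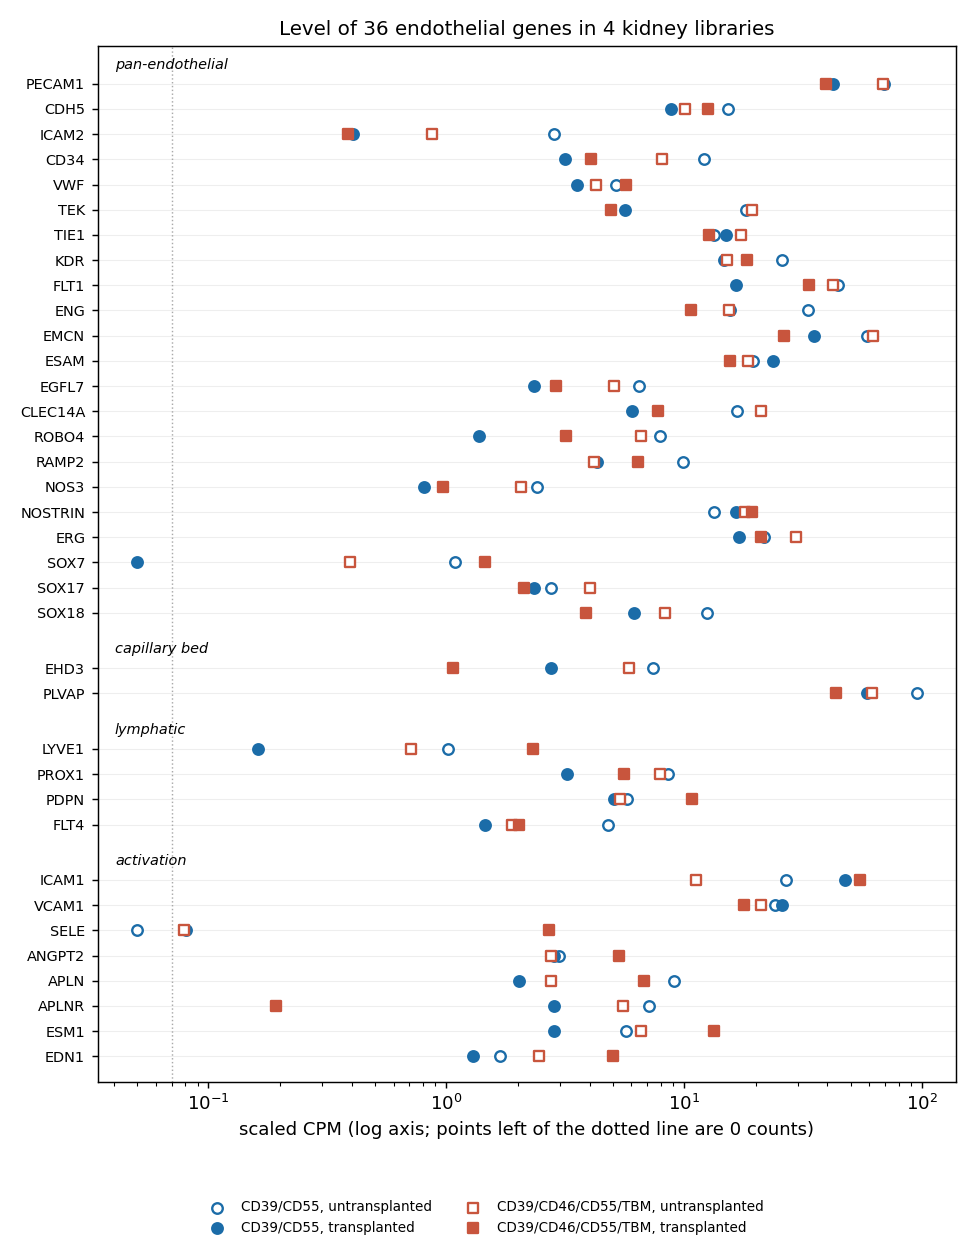
Scaled CPM (log axis) of the 36 genes in each of the 4 libraries, by class, with open symbols for untransplanted and filled symbols for transplanted kidneys. PECAM1, TEK and CLEC14A sit lower in both transplanted kidneys, while APLN, ESM1 and LYVE1 sit apart in the 4-week and 6-week kidneys.

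Gene by gene, the genotypes differed. In CD39/CD55 pigs, 18 of the 36 genes were called lower in the transplanted kidney and 0 higher, where 13.7% of all 18168 genes were called lower and 13.2% higher. In TBM pigs, 7 were called lower and 8 higher, where 16.3% and 15.9% of all genes were. The 8 included SELE, which passed the filter on counts through the 6-week kidney alone. The median log2 ratio of the 36 was -1.0 in CD39/CD55 pigs and -0.39 in TBM pigs, beside 0.03 and 0.01 over all genes. In both genotypes 6 genes were called lower, beside 7.63% of all genes, namely TEK, CLEC14A, ROBO4, SOX18, EHD3 and APLNR, and 0 were called higher in both, beside 5.88%.

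Among the pan-endothelial receptors, TEK, which binds the angiopoietins and keeps vessels quiescent (chromosome 1, 195938177 to 196052294, Sscrofa11.1), had 18.3 scaled CPM before transplantation in CD39/CD55 pigs and 5.65 in the 4-week kidney. It had 19.4 in the untransplanted TBM kidney and 4.92 in the 6-week kidney, so the states did not overlap. The log2 ratios were -1.69 (-2.10 to -1.30) and -1.96 (-2.44 to -1.53). The gene LOC102166359 overlaps one end of TEK and had 175, 61, 120 and 29 counts in the same order, and without stated strand the reads of the overlap cannot be told apart. TIE1, the co-receptor of TEK, had 13.4 and 14.9 scaled CPM in CD39/CD55 pigs and 17.4 and 12.7 in TBM pigs, with overlapping states and no call.

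Of the VEGF receptors, FLT1 had lower levels after transplantation in both genotypes, by different amounts, and KDR was called in neither. FLT1, the decoy receptor VEGFR1, had 44.5 scaled CPM before and 16.6 after transplantation in CD39/CD55 pigs, a log2 ratio of -1.42 (-1.66 to -1.20). In TBM pigs it had 42.0 and 33.3, a ratio of -0.33 (-0.53 to -0.14), which was not called. KDR, the main signalling receptor VEGFR2 (chromosome 8), had 25.7 and 14.7 in CD39/CD55 pigs and 15.1 and 18.4 in TBM pigs. Its ratios of -0.80 and 0.28 were not called, but the difference between them, 1.09 (95% Wald counting interval 0.70 to 1.47), was. ENG, a co-receptor for TGF-beta family ligands, had 33.0 scaled CPM in CD39/CD55 pigs before transplantation, above the 10.7 to 15.5 of the other 3 libraries.

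Several genes of surface proteins were low after transplantation. CLEC14A, a lectin-like protein of endothelium, had 16.7 and 6.06 scaled CPM in CD39/CD55 pigs and 20.9 and 7.73 in TBM pigs, with log2 ratios of -1.45 and -1.43. ROBO4, a guidance receptor that stabilises the vessel wall, had 7.93 and 1.37, and 6.55 and 3.19. CD34, a sialomucin of endothelium and progenitor cells, had 12.2 and 3.15, and 8.06 and 4.06, with ratios of -1.93 (-2.49 to -1.44) and -0.98 (-1.54 to -0.46), of which the first was called. ICAM2, a leukocyte ligand present on resting endothelium, had 39 and 5 counts in CD39/CD55 pigs and 11 and 4 in TBM pigs. This gene passed the filter on counts through the untransplanted kidneys alone. All 4 genes were lower in both transplanted kidneys than in both untransplanted ones.

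EMCN was the 1 pan-endothelial gene called lower in the 6-week kidney but not in the 4-week kidney. It had 58.7 and 35.2 scaled CPM in CD39/CD55 pigs and 62.2 and 26.3 in TBM pigs, with ratios of -0.74 (-0.91 to -0.57) and -1.24 (-1.45 to -1.04). PECAM1 had 69.0 and 42.1, and 68.8 and 39.3, so its ratios of -0.71 and -0.81 stayed short of 2-fold in both. EGFL7, a secreted vessel protein, RAMP2, the adrenomedullin co-receptor, and NOS3, the endothelial nitric oxide synthase, were called lower in CD39/CD55 pigs and not called in TBM pigs. RAMP2 had 9.90 and 4.28 scaled CPM there and 4.19 and 6.37 in TBM pigs, and the difference of its ratios was 1.81 (1.11 to 2.50). NOS3 had 33 and 10 counts, and 26 and 10.

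Other pan-endothelial genes had narrow ranges. VWF, the von Willebrand factor gene, ranged from 3.55 to 5.70 scaled CPM over the 4 libraries, ESAM, a junction adhesion molecule, from 15.6 to 23.7, and NOSTRIN, which binds the nitric oxide synthase, from 13.3 to 19.2. CDH5 had 15.2 and 8.80 in CD39/CD55 pigs and 10.03 and 12.6 in TBM pigs, with overlapping states and neither ratio called. Its difference between the genotypes was 1.11 (0.63 to 1.59).

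The transcription factors of endothelial fate were mixed. ERG, the ETS factor that maintains endothelial identity, had 21.6 and 16.96 scaled CPM in CD39/CD55 pigs and 29.5 and 21.0 in TBM pigs, with ratios of -0.35 and -0.49. SOX18 had 12.4 and 6.14, and 8.29 and 3.86, and was called lower in both. SOX17, a factor of arterial endothelium, had 22 to 51 counts with no call. SOX7 went from 15 counts in CD39/CD55 pigs before transplantation to 0 in the 4-week kidney, at least 4.51-fold lower against a floor of 3 counts in that library. In TBM pigs it had 5 and 15 counts, a log2 ratio of 1.78 (0.34 to 3.69).

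**Figure D2:**
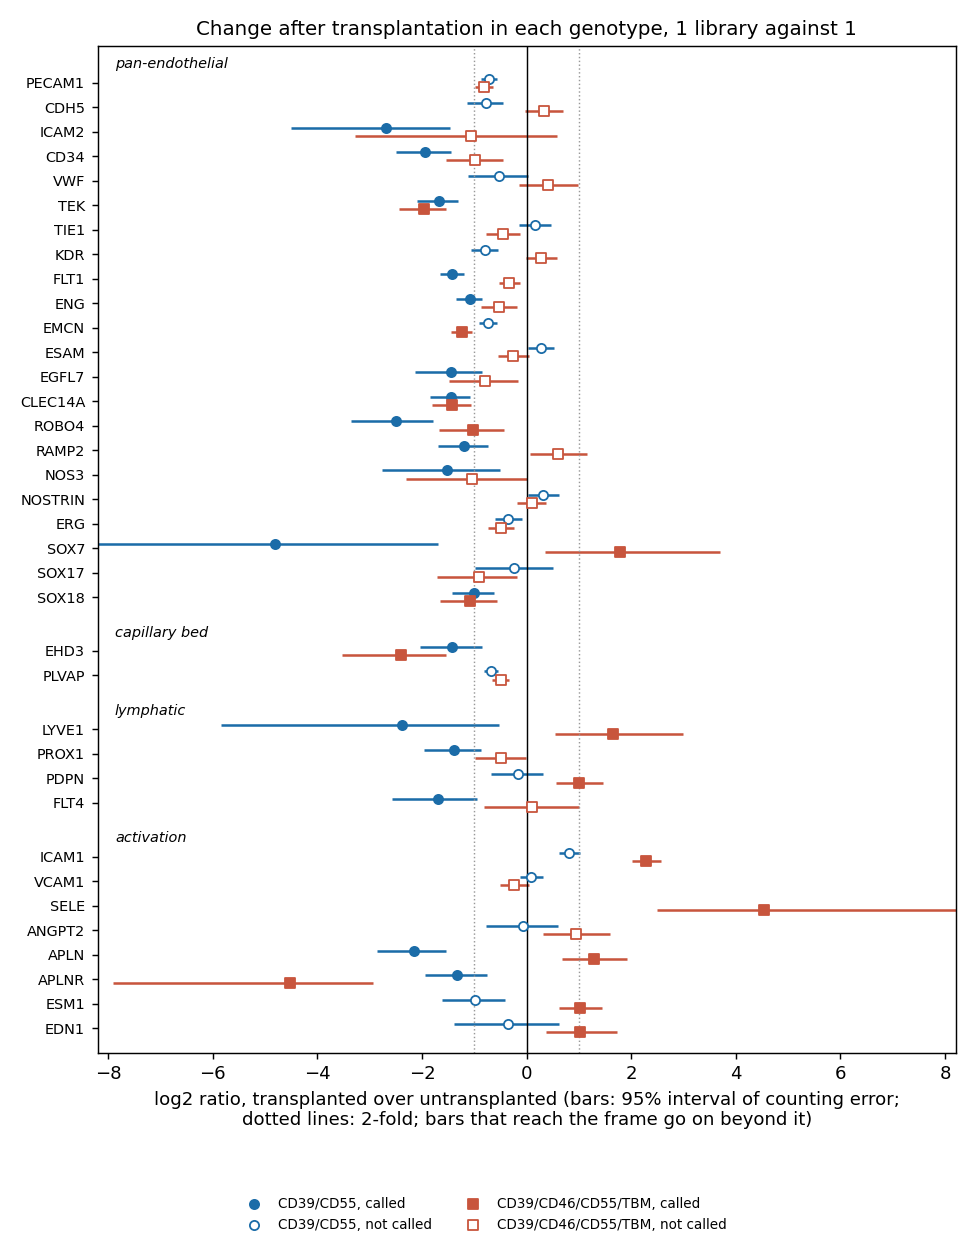
Log2 ratio of transplanted over untransplanted kidney for each gene in CD39/CD55 pigs (blue) and TBM pigs (red), with 95% intervals of counting error and filled symbols for called genes. The red symbols lie to the right of the blue ones for APLN, ESM1, LYVE1 and KDR, and to the left for APLNR and EHD3. SELE is not drawn for CD39/CD55 pigs, where both counts were at or below 3.

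Of the capillary genes, EHD3, a membrane trafficking protein whose renal expression marks glomerular endothelium (chromosome 3, 108103631 to 108135161), was low in both transplanted kidneys. It had 7.42 and 2.75 scaled CPM in CD39/CD55 pigs and 5.84 and 1.06 in TBM pigs, with log2 ratios of -1.42 (-2.04 to -0.86) and -2.40 (-3.52 to -1.54). PLVAP, which builds the diaphragms of fenestrated peritubular capillaries, had 94.7 and 58.8, and 61.7 and 43.6, with ratios of -0.69 and -0.50 that were not called. Both genes had non-overlapping states. The podocyte list, cells that share the glomerulus, had summed levels of 527 and 529 scaled CPM in the untransplanted kidneys and 195 and 301 in the 4-week and 6-week kidneys. All 9 of its genes in the files had counts in every library. The part of glomerular content in the EHD3 values was not tested.

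Of the 4 lymphatic genes, 3 were called lower in the 4-week kidney, beside 13.7% of all genes, and PDPN was not. In the 6-week kidney they were mixed. LYVE1, the hyaluronan receptor of lymphatic capillaries (chromosome 2, 48937357 to 48954206), had 14 and 2 counts in CD39/CD55 pigs and 9 and 24 in TBM pigs. Its log2 ratios of -2.39 (-5.84 to -0.54) and 1.66 (0.55 to 3.0) were called in opposite directions. FLT4, which encodes VEGFR3, had 4.80 and 1.45 scaled CPM, and 1.90 and 2.03. PROX1, the master factor of lymphatic fate, had 8.52 and 3.23, and 7.90 and 5.60, and was called lower in CD39/CD55 pigs and not called in TBM pigs. It overlaps the gene LOC106507881, so reads of the overlap cannot be told apart.

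PDPN, podoplanin of lymphatic endothelium and podocytes, had 5.75 and 5.09 scaled CPM in CD39/CD55 pigs and 5.37 and 10.8 in TBM pigs. The 6-week kidney stood above the other 3 libraries, with a ratio of 1.01 (0.56 to 1.47). Macrophages can also express LYVE1. The 11 macrophage genes summed to 97.1 and 91.1 scaled CPM before and to 10.3 and 18.4 after transplantation, and C1QC was at 0 in both transplanted kidneys. The part of macrophages in the LYVE1 values, and of podocytes in those of PDPN, was not tested.

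Of the 8 activation genes, 5 were called higher in the 6-week kidney than in its untransplanted counterpart and 1 lower, beside 15.9% and 16.3% of all genes. The 5 included SELE, which passed the filter on counts through the 6-week kidney alone, so its call is no support. In the 4-week kidney 0 were called higher and 2 lower, beside 13.2% and 13.7%. ICAM1, the leukocyte adhesion receptor (chromosome 2, 69097136 to 69107722), had 26.8 and 47.2 scaled CPM in CD39/CD55 pigs and 11.2 and 54.8 in TBM pigs. Both transplanted kidneys lay above both untransplanted ones, with log2 ratios of 0.82 (0.63 to 1.01) and 2.28 (2.02 to 2.56). The end levels were close and the starting levels were not: between the untransplanted kidneys the ratio was -1.25 (-1.55 to -0.97), and between the transplanted ones 0.21 (0.04 to 0.38). VCAM1, the ligand of leukocyte VLA-4, had 24.1 and 25.7, and 20.9 and 17.8, and was not called.

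SELE, E-selectin, which activated endothelium makes anew to slow passing leukocytes (chromosome 4, 81289061 to 81299657), had counts of 0 and 1 in CD39/CD55 pigs and 1 and 28 in TBM pigs. Only the 6-week library held more than the 3 counts of the floor, and its log2 ratio to the untransplanted kidney was 4.54 (2.50 to 10.45). In CD39/CD55 pigs a difference was not detectable at this depth. ICAM1 and VCAM1 are also made by injured tubule cells. The injured tubule list summed to 276 and 258 scaled CPM in the untransplanted kidneys, 1961 in the 4-week kidney and 4747 in the 6-week kidney. Most of the transplanted sums was SPP1 and CLU. These had 17836 and 5074 of 24289 counts in the 4-week kidney, and 25798 and 21240 of 49151 in the 6-week kidney. Of 7 measured genes, 5 were called higher and 1 lower in CD39/CD55 pigs, beside 13.2% and 13.7% of all genes. In TBM pigs 6 and 1 were, beside 15.9% and 16.3%. The gene called lower in both was CDH6. SOX9, called higher in both, passed the filter on counts through the transplanted kidneys alone, so its calls are no support. The part of injured tubule cells in the ICAM1 values was not tested.

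Genes of sprouting and of the apelin pathway came next. APLN, which encodes the peptide apelin made by endothelial tip cells (chromosome X, 106236746 to 106246563), had 9.10 scaled CPM in CD39/CD55 pigs before transplantation and 2.02 in the 4-week kidney. It had 2.76 in the untransplanted TBM kidney and 6.76 in the 6-week kidney. The ratios of -2.15 (-2.85 to -1.54) and 1.28 (0.69 to 1.92) were called in opposite directions, as for LYVE1 and SOX7. These 3 genes stand beside 0.721% of all genes with opposite calls. APLNR, the apelin receptor, had 98 and 35 counts in CD39/CD55 pigs and 70 and 2 in TBM pigs. The receptor ratio in TBM pigs was -4.53 (-7.91 to -2.93), so the 6-week kidney held more APLN transcript than its untransplanted counterpart and almost none of APLNR. APELA, the other ligand of the receptor, was named after its values were seen. It had 337 and 266 counts in CD39/CD55 pigs and 303 and 65 in TBM pigs, where it was called lower with a ratio of -1.92 (-2.34 to -1.54).

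ESM1, endocan of tip cells, had 5.68 and 2.83 scaled CPM in CD39/CD55 pigs and 6.55 and 13.3 in TBM pigs, with ratios of -1.0 (-1.62 to -0.41) and 1.02 (0.62 to 1.43). The second was called and the first stayed just short of 2-fold. EDN1, the vasoconstrictor endothelin-1, had 1.67 and 1.29, and 2.45 and 5.02, with a called ratio of 1.03 (0.37 to 1.73) in TBM pigs. ANGPT2, the TEK antagonist released by activated endothelium, had 2.98 and 2.83, and 2.76 and 5.31, a ratio of 0.93 (0.30 to 1.60) in TBM pigs. ESM1, EDN1 and ANGPT2 each had their highest level in the 6-week kidney. The median ratio of the 8 activation genes was -0.22 in CD39/CD55 pigs, or -0.36 without SELE, and 1.02 in TBM pigs. Their summed level, led by ICAM1, went from 77.7 to 85.2 scaled CPM in CD39/CD55 pigs, so median and sum differ in sign there. In TBM pigs it went from 52.5 to 106.3.

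**Figure D3:**
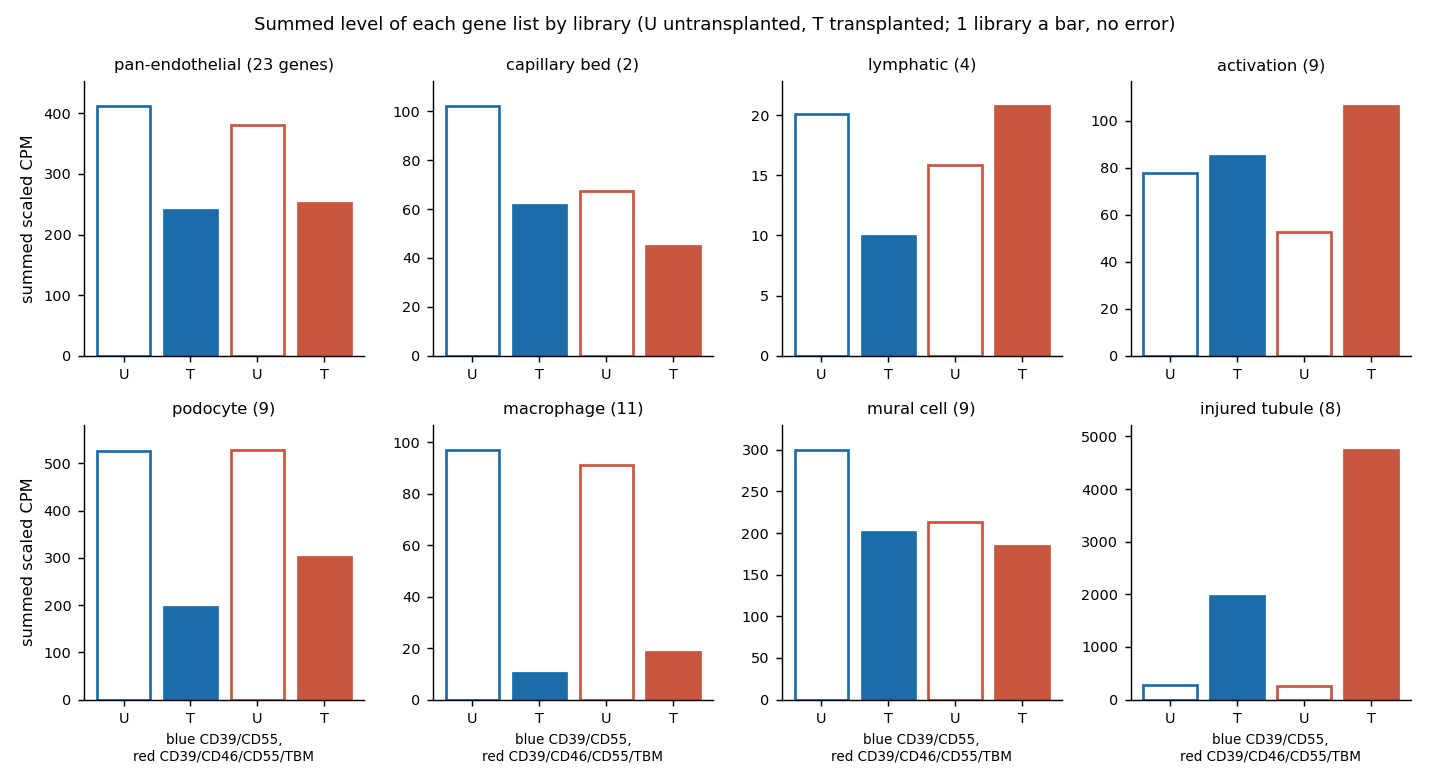
Summed scaled CPM of the 4 endothelial classes and of 4 lists of other kidney cells, 1 bar a library (open untransplanted, filled transplanted; no error bars, as no group has a replicate). Pan-endothelial and capillary sums are lower in both transplanted kidneys, and the activation sum is highest in the 6-week kidney at 106.3.

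Transplanted and untransplanted kidneys were then tested over both genotypes, 2 libraries against 2, with edgeR's quasi-likelihood test. The spread in this test holds genotype, weeks and animal. TEK fell, its adjusted p being 0.0381 at a log2 fold change of -1.83 (SE 0.44), and it was the only one of the 36 to pass, beside 2.71% of all genes that fell. None rose, beside 1.24% of all genes, and none did under DESeq2's Wald test or limma voom. DESeq2 gave an adjusted p for 34 of the 36, and none for SELE. TEK did not pass without the untransplanted CD39/CD55 kidney (adjusted p = 0.0749), without the untransplanted TBM kidney (0.0741) or without the 6-week kidney (0.102), and over the alternatives its adjusted p in these models ranged from 0.00181 to 0.102.

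At an unadjusted p under 0.05 there were 8 genes with a lower level, beside 10.7% of all genes, and 2 with a higher level, beside 8.99%. The lower ones besides TEK were CLEC14A (log2 fold change -1.45, edgeR adjusted p = 0.0912), EHD3 (-1.78, 0.117), CD34 (-1.49, 0.119), ROBO4 (-1.67, 0.125), APLNR (-2.03, 0.184), EMCN (-0.97, 0.200) and ICAM2 (-2.21, 0.201). The higher ones were ICAM1 (1.42, SE 0.47, edgeR adjusted p = 0.115) and SELE, whose fitted fold change depends on the prior count because 1 library had no count (adjusted p = 0.137). With genotype as a block, on 1 residual degree of freedom, edgeR's adjusted p was under 0.05 for CLEC14A (0.0103), EHD3 (0.0138), CD34 (0.0292), ROBO4 (0.0217), APLNR (0.00741), EMCN (0.0366), ICAM1 (0.0038) and SELE (0.0382), and it was 0.00181 for TEK and 0.121 for ICAM2. DESeq2's Wald test called CLEC14A as well (adjusted p = 0.0477). Leaving out 1 library leaves 1 state with a lone library, assumed to vary like the pair of the other state. On that assumption ICAM1 had an adjusted p of 0.0433 without the untransplanted CD39/CD55 kidney and 0.0275 without the 4-week kidney. Without the 4-week kidney, where the 6-week kidney alone stands for transplantation, EHD3, APLNR and SELE had adjusted p of 0.0139, 0.000191 and 0.00247 in edgeR's test. SELE passed the filter on counts through the 6-week kidney alone, so none of its values in these tests is support for it. The other 26 genes had adjusted p from 0.259 to 0.982. Both transplanted kidneys lay below both untransplanted ones for 17 genes, beside 25.5% of all genes, and above them for 2, beside 26.3%. These were ICAM1 and SELE, of which SELE had 1 count both in the 4-week kidney and in the untransplanted TBM kidney, so its place there rests on library size below the floor of 3 counts.

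Between the genotypes, 6 of the 36 genes were called lower in the untransplanted TBM kidney than in the untransplanted CD39/CD55 kidney, and 0 higher, beside 7.88% and 8.17% of all genes. These were ICAM2, ENG, RAMP2, FLT4, ICAM1 and APLN. Between the transplanted kidneys, 9 were called higher in the 6-week kidney and 2 lower, beside 11% of all genes in each direction. The 9 were FLT1, ROBO4, SOX7, LYVE1, PDPN, SELE, APLN, ESM1 and EDN1, and the 2 were EHD3 and APLNR. Among the 9, SELE was in the list of 36 through the 6-week kidney alone. ESM1 had the ratio 2.22 (1.69 to 2.82), EDN1 1.93 (1.13 to 2.87) and APLN 1.73 (1.07 to 2.46).

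The transplantation ratios differed by a called amount for 15 genes. For 14 the ratio was higher in TBM pigs, beside 10.4% of all genes, and for APLNR it was lower, beside 11.5%. The median difference was 1.49 for lymphatic, 1.43 for activation, 0.52 for pan-endothelial and -0.40 for capillary genes, beside -0.01 for all genes. These pairs share libraries, so the low untransplanted APLN and ICAM1 levels of TBM pigs enter both its lower starting level and its larger ratio. In edgeR's test of genotype over both states, 0 of 18168 genes passed in either direction. At an unadjusted p under 0.05 there were 190 higher (1.05% of all genes) and 259 lower (1.43%), none of them among the 36. DESeq2's Wald test called 12 and 5, and limma voom 0. In the former, 29 of the 36 had an adjusted p.

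The capillary, lymphatic and activation genes were also set against the summed pan-endothelial counts of the same library. PECAM1, EMCN and FLT1 made up 38.9% to 45.4% of that sum. On this scale ICAM1 had 65.0 counts per 1000 pan-endothelial counts before and 196.0 after transplantation in CD39/CD55 pigs, and 29.4 and 216.6 in TBM pigs. As the sum itself was lower after transplantation, most genes lay above it: the median relative log2 ratio of all genes was 0.80 in CD39/CD55 pigs and 0.60 in TBM pigs. ICAM1 lay above those medians, at 1.59 and 2.88, and VCAM1 near them or below, at 0.87 and 0.36. Relative to the sum, 4 of 7 activation genes were higher in the 4-week kidney, beside 80% of all genes, and 7 of 8 in the 6-week kidney, beside 71.7%, the exception in the latter being APLNR. The 7 of 8 included SELE, which passed the filter on counts through the 6-week kidney alone. PLVAP changed about as the sum did, with relative log2 ratios of 0.09 in both genotypes, and EHD3 was below it at -0.65 and -1.81. Tubule cells and podocytes also express some of these genes, so the values are not levels per endothelial cell.

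**Figure D4:**
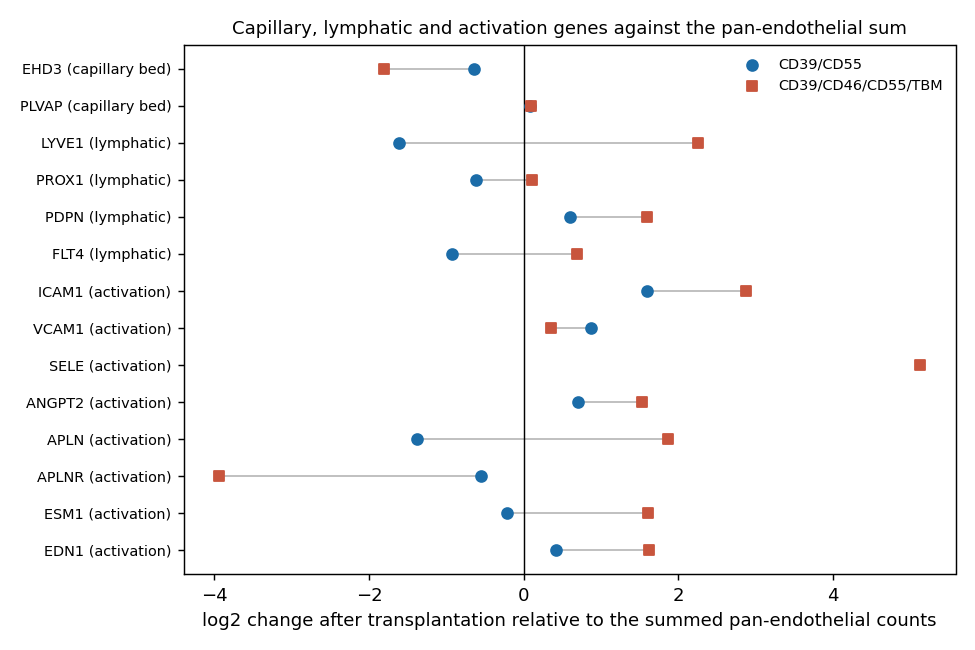
Log2 change after transplantation of each capillary, lymphatic and activation gene relative to the summed pan-endothelial counts (0 means a change equal to that of the sum). SELE is drawn for TBM pigs only; ICAM1 lies at 1.59 and 2.88 and APLNR at -0.55 and -3.94, where the median of all genes is 0.80 and 0.60.

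Genes that act with these were taken from further lists. Of 14 ligands and partners of the VEGF and angiopoietin receptors, none passed edgeR's test in either direction and 3 had an unadjusted p under 0.05, all lower, beside 10.7% of all genes with such a p and a lower level. SVEP1, a matrix protein that binds the angiopoietin receptor system, had 349 and 152 counts in CD39/CD55 pigs and 258 and 76 in TBM pigs. PTPRB, the phosphatase that restrains TEK, had 399 and 145, and 335 and 148, and ANGPT1, the activating TEK ligand, 180 and 134, and 307 and 72. Both transplanted kidneys lay below both untransplanted ones for 5 of the 14 and above for 2, beside 25.5% and 26.3% of all genes. The 2 were VEGFD, with 62 and 93, and 48 and 57 counts, and NRP2, with 221 and 268, and 227 and 285. They were named after their values were seen. Of 15 Notch and arteriovenous genes, GJA5 alone passed, beside 2.71% of all genes that fell and 1.24% that rose. This gap junction gene of arterial endothelium fell, with 138 and 19 counts in the one genotype and 103 and 13 in the other, and had a log2 fold change of -2.69 and an adjusted p of 0.0171 in edgeR's test. Other genes of the list went the other way. Both transplanted kidneys lay above both untransplanted ones for 4 and below for 4, beside 26.3% and 25.5% of all genes. HEY2, among the 4 above, had 9 and 24, and 6 and 35 counts and was called higher in both genotypes. It passed the filter on counts through the transplanted kidneys alone, so its calls are no support.

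None of 11 measured endothelin and flow response genes passed edgeR's test in either direction, and 1, the endothelin receptor gene EDNRA, had an unadjusted p under 0.05, with 75 and 145 counts, and 66 and 148, beside 8.99% of all genes with such a p and a higher level. KLF4, a factor induced by shear stress, had 61 and 48 counts in CD39/CD55 pigs and 37 and 150 in TBM pigs. CAVIN2, of endothelial caveolae, had 403 and 170, and 545 and 250. KLF2, the partner of KLF4, was picked after its values were seen and had 237 and 69, and 155 and 154. The ratios of KLF2 and KLF4 were -1.62 and -0.19 in CD39/CD55 pigs, and 0.28 and 2.29 in TBM pigs.

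NF-kappaB response genes, whose products include inducers and cofactors of adhesion receptors, had 12 measured members and none passed edgeR's test. Of these, 1 was called higher and 1 lower in CD39/CD55 pigs, beside 13.2% and 13.7% of all genes, and 5 higher and 0 lower in TBM pigs, beside 15.9% and 16.3%. IRF1 had 185 and 131 counts, and 54 and 326, the chemokine gene CCL2 46 and 80, and 73 and 125, and IL6 1 and 20, and 3 and 10. IL6 was the 1 member with an unadjusted p under 0.05, at a higher level, beside 8.99% of all genes. It was also the 1 called higher in CD39/CD55 pigs and among the 5 in TBM pigs. IL6 passed the filter on counts through the transplanted kidneys alone, so neither its calls nor its p is support. TNF, with 10 and 1 counts, and 2 and 1, was the gene called lower, and it was named after its values were seen. As TNF passed the filter through the untransplanted CD39/CD55 kidney alone, its call is no support either.

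Further lymphatic genes had 6 measured members and none passed edgeR's test. FOXC2, a factor of lymphatic valves that podocytes also express, had 188 and 74 counts, and 129 and 44. STAB1, a scavenger receptor of sinusoidal and lymphatic endothelium and macrophages, had 257 and 128, and 106 and 31. MMRN1, multimerin of lymphatic endothelium, had 22 and 20, and 55 and 127, and was called higher in TBM pigs with a ratio of 1.49. RELN, which had 58 and 56, and 59 and 101, was also called higher there (1.06), and ITGA9 and STAB2, with ratios of 0.97 and 0.53, were not called. These 3 genes were named after their values were seen. The median ratio of the 6 was 0.04 in CD39/CD55 pigs and 0.75 in TBM pigs. Of 5 other genes linked to glomerular endothelium none passed. LPL, lipoprotein lipase, had 100 and 411 counts, and 68 and 113, HECW2 254 and 131, and 253 and 148, and TBX3 121 and 265, and 218 and 147, while SOST was at 0 in every library.

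DESeq2's Wald test and limma voom likewise called none of the VEGF and angiopoietin, endothelin and flow, NF-kappaB or further lymphatic genes. Among the other glomerular genes DESeq2 called LPL higher and limma voom called none.

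Other cell types that could carry these transcripts were summed as well. The leukocyte list had 59.9 and 62.5 scaled CPM before and 18.3 and 23.3 after transplantation, and 1 of its 7 measured genes fell, beside 2.71% of all genes. Leukocytes and platelets also carry PECAM1, and their part in its values was not tested. Of the 6 platelet genes in the files, PPBP and GP1BA were at 0 in every library, and the list summed to 32.8 and 51.8 in CD39/CD55 pigs and 52.1 and 36.4 in TBM pigs. Most of this sum was GP9, with 406 of 451 and 544 of 641 counts in CD39/CD55 pigs, and 591 of 660 and 246 of 377 in TBM pigs. Mural cell genes, of the smooth muscle and pericytes around vessels, summed to 300.1 and 200.9, and 213.8 and 184.9. ACTA2, smooth muscle actin, was the 1 of 9 that fell, with an adjusted p of 0.0356 in edgeR's test, beside 2.71% of all genes. Both transplanted kidneys lay below both untransplanted ones for 4 mural genes and above for 1, beside 25.5% and 26.3% of all genes. The latter was RGS5, with 48 and 85, and 44 and 90 counts. PDGFRB had 650 and 895, and 340 and 461, and was called in neither genotype. Red cell genes summed to 50.2 and 19.1, and 194.6 and 36.3, with HBB at 110 and 3, and 2114 and 46 counts. SLC4A1 of the same list had 567 and 214, and 295 and 310 counts. The list totals were 690 and 237, and 2464 and 376 counts, so outside the untransplanted TBM kidney the sum was mostly SLC4A1.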

How the data were processed

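RNA of 4 pig kidneys was sequenced, 1 library per group. Per the labels' protocols, a phenol and chloroform extraction preceded library preparation with a Lexogen Quant-Seq kit. The deposited files hold raw read counts per gene, which the authors did not normalize. Reads were handled with Bowtie2, bedtools and Sscrofa11.1, per the submitters' processing notes. The sources used here do not give versions, strand use or the handling of reads with several matches. Lines of the 81 repeated symbols were summed. Genes with 10 or more counts in at least 1 library were kept, and library totals are those of all genes. TMM scaling and the quasi-likelihood test used edgeR 4.0.16 in R 4.3.3, with 2 residual degrees of freedom and Benjamini-Hochberg adjustment over 18168 genes at 0.05. The SE is the fold change divided by the root of F. Ratios of pairs used a prior count of 0.5, a fold of 2 and 95% exact intervals, with no p-value. Alternatives were DESeq2 1.42.0 (size factors, Wald test), limma 3.58.1 voom, other filters, the other factor as a block, a scaling without ribosomal and mitochondrial loci, a prior count of 2, a fold of 1.5 and leaving out each library. The test and the intervals were tested on simulated data.

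The members and gene lists were chosen with earlier results of these data known. Values are given for called genes, for core markers of each class and, per further list, for genes that passed the test or else the 3 with the smallest p. Some other genes of these lists were named after their values were seen, to show what a sum holds or which members went the other way. All 38 symbols were found in the RefSeq table of Sscrofa11.1, which gave the coordinates. EGFL7 and APLNR lie on unplaced sequence. TEK, PECAM1, ENG, SOX18, PROX1, ANGPT2 and NOSTRIN overlap another gene in that table, so their counts are uncertain where reads fall in the overlap. Promoter and protein sequences were not used here.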

Additional observations from a re-analysis of the deposited data

Results flagged for a closer look

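The following genes had transplantation ratios called in opposite directions in the genotypes, which held for 3 of the 36 genes beside 0.721% of all genes. The difference was not tested, as each genotype had 1 library per state, and weeks after transplantation and recipient cannot be told apart from genotype. For APLN the ratio was higher in TBM pigs by 3.43 on the log2 scale (counting interval 2.58 to 4.28). For LYVE1 it was higher by 4.04 (1.83 to 6.26), on 2 to 24 counts per library. For SOX7 it was higher by 6.59 (2.29 to 10.89), a value that depends on the prior count because the 4-week kidney had no count.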

How the results depend on the processing

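All 720 alternative log2 ratios of single genes between pairs stayed within their counting intervals of the main value. Of 236 alternative values of counts, medians and sums, 196 stayed close to the main ones (a count within 1.5 times, a median or sum within its counting interval) and 40 did not. In edgeR's state test over all genes (225 rose, 493 fell) the counts were 543 and 1035 without a filter, 431 and 865 with the Wald test of DESeq2, 1124 and 1681 where genotype was a block, and 1051 and 1349 without the 4-week kidney (186 to 1051 and 392 to 1349 over the libraries left out). Of the 36 genes, 0 rose and 1 fell in the main test, 1 and 4 without a filter, 0 and 2 under the Wald test, 2 and 7 where genotype was a block, and from 0 to 2 and from 0 to 3 when 1 library was left out. The block called TEK, CLEC14A, EHD3, CD34, ROBO4, EMCN, APLNR, ICAM1 and SELE on 1 residual degree of freedom. This block pairs the kidneys of a genotype, for which the labels give no shared animal. For genotype, 12 genes were higher and 5 lower under the Wald test, 133 and 171 with state as a block, and from 0 to 14 and from 0 to 4 when 1 library was left out, and 0 of the 36 in any of these. Under the Wald test, 34 of the 36 had an adjusted p for state and 29 for genotype. With genes of a mean of at least 50 counts only, the medians in CD39/CD55 pigs were -0.78 for lymphatic and -1.0 for activation genes, and the activation median between the transplanted kidneys was 0.21. With a 1.5-fold rule, 1 gene was higher in CD39/CD55 pigs, 11 lower in TBM pigs, 10 lower between the untransplanted kidneys, 4 lower between the transplanted ones, and 2 differences were lower. Without ribosomal and mitochondrial loci the pan-endothelial sums were 532.5 and 310.3 in CD39/CD55 pigs and 490.4 and 323.4 in TBM pigs, by construction of a smaller total. Depth limits SELE, SELP, CLDN5, SOX7, LYVE1, ICAM2 and APLNR, which had 5 counts or fewer in at least 1 library.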
